A study of Mus musculus with 8 samples.

Results

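The enzymes and carriers of the folate one-carbon cycle were followed in macrophages that lack phosphoglycerate dehydrogenase (PHGDH), the first enzyme of serine synthesis. The 9 genes were chosen by symbol from the table of 18635 genes as users and carriers of the one-carbon units that serine gives, and all 9 had a row. They are *Sfxn1*, *Slc25a32*, *Mthfd2*, *Mthfd2l*, *Mthfd1l*, *Aldh1l2*, *Mthfd1*, *Mthfs* and *Mtfmt*.

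RNA was sequenced from bone marrow-derived macrophages (BMDMs) of mice on a C57BL/6 background, aged 6 to 8 weeks, that had been kept for 24 h in medium conditioned by AE17 cells, a murine mesothelioma line, and that are called tumor-educated macrophages (TEMs) here. The comparison addressed how loss of PHGDH changes these cells. The 4 samples of control TEMs were *Phgdh* fl/fl, with both *Phgdh* alleles floxed and no Cre. The 4 samples of PHGDH-deficient TEMs were *Phgdh* fl/fl *Cx3cr1*-Cre, with the same floxed alleles and the recombinase driven from 1 *Cx3cr1* allele. Both genotypes received the conditioned medium and were littermates according to the methods. The deletion was thus limited to cells that have expressed *Cx3cr1*. The Cre and the altered *Cx3cr1* allele went together with the *Phgdh* deletion and cannot be told apart from it. Cells with the Cre and no floxed *Phgdh* were not analysed here. The labels do not say whether the samples of a genotype came from separate mice, and p-values measure only the spread between these samples.

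The reads counted on genes were between 38219563 and 47027420 per sample. Each deposited value is the number of reads of a gene over the size factor of its sample, called a normalized count here. *Phgdh* had a mean of 117 normalized counts in control TEMs and 27.1 in PHGDH-deficient TEMs, and *Cx3cr1* had 1075 and 660. The 8 macrophage markers examined were all counted in every sample, with a summed level between 1030180 and 1121130 normalized counts in control TEMs and between 1008580 and 1085170 in PHGDH-deficient TEMs. Of these, *Adgre1*, *Itgam*, *Fcgr1* and *Cd14* were lower in PHGDH-deficient TEMs with log2 fold changes between -0.40 and -0.084. The 4 T cell and 3 erythroid markers had no row in the table. The neutrophil marker *S100a8* was higher (log2 fold change 0.23) and the B cell marker *Cd79b* lower (-0.63), while *Ly6g*, *S100a9*, *Mpo*, *Elane* and *Cd79a* had no row. The dendritic cell list summed to between 7.24 and 26.7 normalized counts in control TEMs and to between 22.9 and 38.6 in PHGDH-deficient TEMs. The 4 fibroblast markers summed to at most 53.9 normalized counts in any sample, and the mesothelial and mast cell lists to at most 5.08 and 7.12. The part of these markers in the differences below was not tested. Fewer cells of a type and less RNA per cell cannot be told apart in bulk samples.

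Tetrahydrofolate (THF) carries single carbon atoms at several oxidation states, and serine is their main source in proliferating cells. Serine can enter the mitochondrion through sideroflexin 1 (SFXN1). There its carbon passes to THF, is oxidized by MTHFD2 or MTHFD2L, and leaves as formate through MTHFD1L. In the cytosol, MTHFD1 puts formate back on THF for the synthesis of purines, thymidylate and methyl groups.

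The levels of the 9 genes were first compared with each other per length, as FPKM computed from the recovered reads and the annotated exon length of each gene. That length joins the exons of all annotated transcripts of a gene. It was 3655 bases for *Mtfmt*, 6081 for *Slc25a32*, 6645 for *Mthfd2l*, 7503 for *Aldh1l2* and 7638 for *Mthfs*. The longest single transcripts of these genes have 2563, 5905, 4148, 6027 and 3971 bases. *Sfxn1* had the longest joined length, 9841 bases, and its longest single transcript is not given here. The order below holds for the joined length, and other lengths were not tried. *Mthfd2* was by far the most abundant, with 21.1 ± 1.59 FPKM (SD, n = 4) in control TEMs. It encodes the mitochondrial methylene-THF dehydrogenase that is typical of embryonic, transformed and activated cells. *Mthfd1* (5.58 ± 0.171 FPKM) and *Mthfd1l* (5.55 ± 0.217 FPKM) followed at the same level, since their sample ranges overlapped in both genotypes. *Mtfmt* (3.42 ± 0.123 FPKM), *Slc25a32* (3.29 ± 0.0744 FPKM) and *Sfxn1* (3.20 ± 0.113 FPKM) formed the next step by the joined length. Neighbors within this step overlapped in control TEMs, but in PHGDH-deficient TEMs *Sfxn1*, at 2.83 ± 0.0706 FPKM, lay below *Slc25a32*, at 3.29 ± 0.0141 FPKM, in every sample. In normalized counts *Sfxn1* lay above *Slc25a32* in both genotypes, so this order depends on the joined lengths. *Mthfd2l*, the second mitochondrial dehydrogenase, had 1.00 ± 0.0489 FPKM and *Mthfs* 0.431 ± 0.0529 FPKM. *Aldh1l2* was close to the limit of the data at 0.0512 ± 0.0128 FPKM. The 3 lowest genes stood apart from each other and from the rest in all 8 samples.

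**Figure D1:**
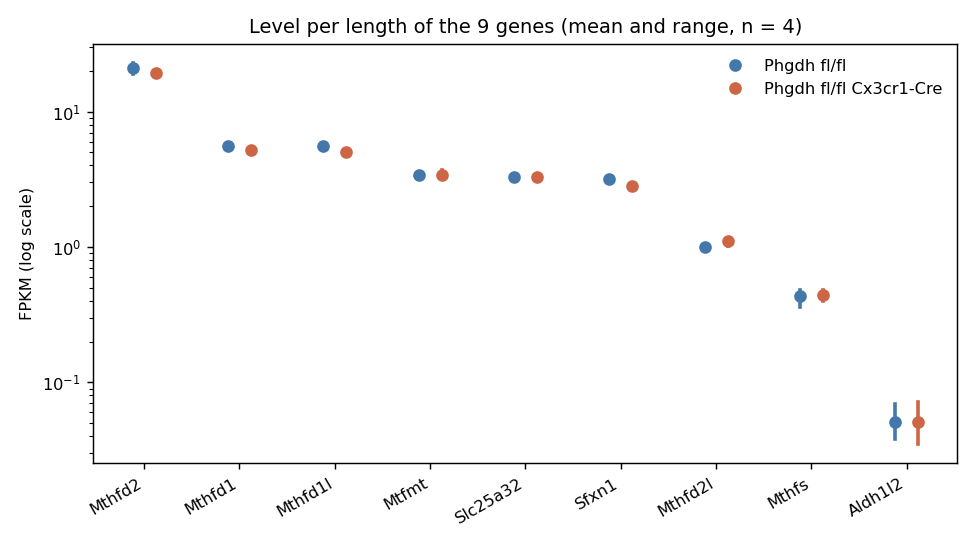
Level of each of the 9 genes in FPKM on a log axis, with points for the mean and vertical lines for the range of the 4 samples of control (*Phgdh* fl/fl) and PHGDH-deficient (*Phgdh* fl/fl *Cx3cr1*-Cre) TEMs. *Mthfd2* lies highest at 21.1 FPKM in control TEMs and *Aldh1l2* lowest at 0.0512 FPKM.

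The genotypes were compared with limma on the scale log2(normalized count + 1). Tested were the 13629 genes whose mean over the samples reached 10 normalized counts, with Benjamini-Hochberg adjustment over this whole set. All 9 genes passed this filter. Of these, 4 were lower in PHGDH-deficient TEMs with an adjusted p under 0.05, namely *Sfxn1*, *Mthfd1l*, *Mthfd2* and *Mthfd1*, and 0 were higher. Among all tested genes, 20.3% were lower and 20.8% were higher by the same rule, 41.0% in all. At an unadjusted p under 0.05 there were again 4 lower and 0 higher, beside 24.1% and 24.4% of all tested genes, and edgeR and DESeq2 called 0 higher as well. The differences were small. The median log2 fold change was -0.026 over the 9 genes and -0.0018 over all tested genes, and the percent changes of the 4 lower genes ran from -12.5% to -7.20%. In 3 of the 9, all samples of PHGDH-deficient TEMs lay below all samples of control TEMs, against 18.2% of the tested genes. The opposite order was found in 0 of the 9 and in 18.4% of the tested genes, and the genotypes did not overlap in either direction in 36.7% of them.

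**Figure D2:**
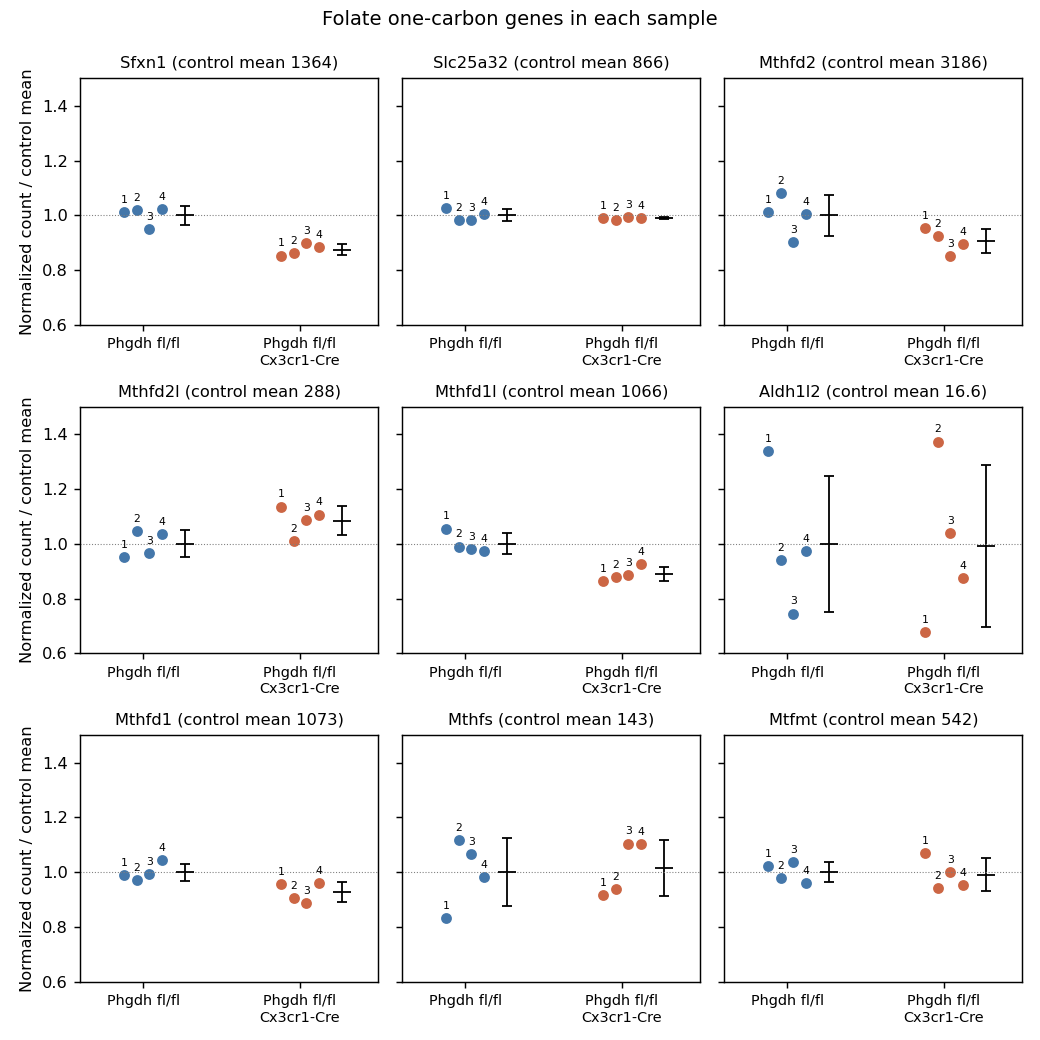
Normalized count of each gene divided by its mean in control TEMs, for each sample (points, labelled with the replicate number), with the mean and SD of 4 samples beside them. The genotypes do not overlap for *Sfxn1*, *Mthfd1l* and *Mthfd1*, and the widest spread is that of *Aldh1l2*, which had between 10 and 24 reads per sample.

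*Sfxn1* showed the largest change of the 4. Its product is a carrier that takes serine into the mitochondrion. The gene (ENSMUSG00000021474) lies on the plus strand of chromosome 13 from 54071869 to 54108342 (mm10). Control TEMs had 1378, 1390, 1294 and 1393 normalized counts of *Sfxn1*, and PHGDH-deficient TEMs had 1163, 1175, 1226 and 1207. Each PHGDH-deficient sample lay below the lowest control sample, which was replicate 3. *Sfxn1* fell by 12.5% (log2 fold change -0.19, standard error 0.037, limma adjusted p = 0.000246), with a 95% interval from -17.0% to -7.69%. The call was kept in 20 of 20 other settings. On sample values alone, 4 against 4 samples reach at best p = 0.0286 in the exact two-sided permutation test, which *Sfxn1*, *Mthfd1l* and *Mthfd1* did.

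*Slc25a32* encodes the folate carrier of the mitochondrial inner membrane. It had 891, 852, 851 and 872 normalized counts in control TEMs and 857, 852, 861 and 859 in PHGDH-deficient TEMs. The latter values all lay within the range of the control samples. On the log2 scale *Slc25a32* differed by -0.015 ± 0.040 (standard error, limma adjusted p = 0.800), and its 95% interval from -6.53% to 4.80% does not reach the estimate for *Sfxn1*. The difference between the carriers itself was not tested.

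*Mthfd2* (ENSMUSG00000005667, minus strand of chromosome 6 from 83305691 to 83325908) had 3229, 3445, 2873 and 3198 normalized counts in control TEMs. It had 3039, 2950, 2712 and 2851 in PHGDH-deficient TEMs. The genotypes overlapped, since control replicate 3 lay below PHGDH-deficient replicates 1 and 2. *Mthfd2* fell by 9.35% (log2 fold change -0.14, standard error 0.043, limma adjusted p = 0.0125, 95% interval from -14.7% to -3.43%). Replicate 3 was the lowest sample of *Mthfd2* in both genotypes. The adjusted p rose to 0.0687 without control replicate 2, to 0.0557 without PHGDH-deficient replicate 3, and to 0.115 without the mean-variance trend of limma.

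*Mthfd2l* encodes the paralog that catalyzes the same mitochondrial step and is found more widely in adult tissues. It had 274, 302, 278 and 299 normalized counts in control TEMs and 327, 291, 313 and 319 in PHGDH-deficient TEMs. Of the PHGDH-deficient samples, 3 lay above all control samples and replicate 2 lay among them. *Mthfd2l* differed by 0.12 ± 0.068 on the log2 scale (standard error, limma adjusted p = 0.181), and the 95% interval from -1.70% to 19.6% includes 0.

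*Mthfd1l* encodes the mitochondrial formyl-THF synthetase, which releases formate to the cytosol. The gene (ENSMUSG00000040675) lies on the plus strand of chromosome 10 from 3973118 to 4167081. It had 1126, 1056, 1047 and 1037 normalized counts in control TEMs and 921, 937, 946 and 989 in PHGDH-deficient TEMs. The groups did not overlap. *Mthfd1l* fell by 11.0% (log2 fold change -0.17, standard error 0.041, limma adjusted p = 0.00214, 95% interval from -16.1% to -5.62%). Its call was kept in 19 of 20 other settings.

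*Aldh1l2* encodes the other mitochondrial enzyme that uses formyl-THF, which it oxidizes to carbon dioxide with formation of NADPH. It had 22.3, 15.6, 12.4 and 16.2 normalized counts in control TEMs and 11.3, 22.9, 17.3 and 14.6 in PHGDH-deficient TEMs. The genotypes were spread over the same range. For *Aldh1l2* the 95% interval of the change ran from -35.2% to 48.8%, so that a difference of the size seen for *Sfxn1* was not detectable at this depth. In addition, 1056 bases (14.1%) of the exons of *Aldh1l2* are shared with *D10Wsu102e* on the opposite strand, which had a mean of 1558 normalized counts in control TEMs, and the strand setting of the counting is not given in the sources used here.

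*Mthfd1* encodes the trifunctional cytosolic enzyme that joins formate to THF and interconverts methenyl- and methylene-THF. The gene (ENSMUSG00000021048) lies on the plus strand of chromosome 12 from 76255298 to 76319803. It had 1064, 1044, 1065 and 1122 normalized counts in control TEMs and 1028, 974, 952 and 1031 in PHGDH-deficient TEMs. The highest PHGDH-deficient sample lay just below the lowest control sample, so that the groups did not overlap. *Mthfd1* fell by 7.20% (log2 fold change -0.11, standard error 0.041, limma adjusted p = 0.0394, 95% interval from -12.5% to -1.57%). This was the weakest of the 4 calls and was kept in 11 of 20 other settings. The adjusted p of *Mthfd1* rose to 0.0578 without control replicate 3, 0.130 without control replicate 4, 0.104 without PHGDH-deficient replicate 2 and 0.134 without PHGDH-deficient replicate 3, and to 0.0771 with DESeq2.

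*Mthfs*, whose product returns formyl-THF stored in its stable form to the active pool, had 119, 159, 152 and 140 normalized counts in control TEMs. It had 131, 134, 158 and 158 in PHGDH-deficient TEMs. The genotypes overlapped throughout (log2 fold change 0.026, standard error 0.11, limma adjusted p = 0.875, 95% interval from -13.0% to 19.1%). *Mtfmt* encodes the enzyme that places a formyl group on the initiator methionyl-tRNA of mitochondria. It had 554, 530, 562 and 521 normalized counts in control TEMs and 581, 510, 542 and 516 in PHGDH-deficient TEMs. The difference of *Mtfmt* was -0.013 ± 0.054 on the log2 scale (standard error, limma adjusted p = 0.871, 95% interval from -8.41% to 7.17%). Both genes lie on chromosome 9, which also carries *Cx3cr1*, at distances of 54.4 Mb (*Mtfmt*) and 30.5 Mb (*Mthfs*).

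Replicates 1 and 4 of both genotypes lay apart from replicates 2 and 3 on the second principal component, which carried 13.2% of the variance, and the labels name no batch. The estimates of the 4 lower genes were below 0 within both sets of replicates. For *Sfxn1*, *Mthfd1l* and *Mthfd1* this sign was fixed in advance, since their genotypes did not overlap. The sign within the sets therefore adds nothing for these genes. With replicates 1 and 4 alone the log2 fold changes were -0.23 for *Sfxn1*, -0.18 for *Mthfd1l*, -0.13 for *Mthfd2* and -0.085 for *Mthfd1*. With replicates 2 and 3 alone they were -0.16, -0.16, -0.15 and -0.13 in the same order. With a term for these sets in the fit of all 8 samples, the 4 genes stayed called. Their limma adjusted p was then 0.000304, 0.00236, 0.0115 and 0.0290 in the same order. *Aldh1l2* (-0.54 and 0.48), *Mthfs* (0.15 and -0.097), *Mtfmt* (0.027 and -0.054) and *Slc25a32* (-0.038 and 0.0086) had estimates of opposite sign in these sets.

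For *Sfxn1*, *Mthfd1l*, *Mthfd2* and *Mthfd1*, no transcript of another gene was found at 90% identity or more over at least the 75 bases of a read. For *Mtfmt*, a stretch of 744 bases was 94.6% identical to *Vmn1r71*, which had no row in the table. Stretches of at most 199 bases in *Mthfd2l* matched transcripts of 326 other genes, and stretches of at most 163 bases in *Slc25a32* matched those of 61. The counts of these 3 genes are less certain. The sequences before their start sites are shown because these 4 genes moved in the same direction, with that of *Mthfd2l*, which did not pass the test, for comparison. Each run covers the 100 bases before the RefSeq start site (GRCm38.p6, strand of the gene), and capitals mark the letters GGGCGG (the GC box) and CCAAT (the CCAAT box) on either strand. The run of *Mthfd2* lies inside the gene bounds given above and not before their upstream end. That of *Mthfd2l* also reaches into its annotated gene.
Sfxn1 (chr13:54071745-54071844, plus strand): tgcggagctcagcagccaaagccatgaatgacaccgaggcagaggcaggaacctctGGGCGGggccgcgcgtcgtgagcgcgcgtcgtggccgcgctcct
Mthfd1l (chr10:3972975-3973074, plus strand): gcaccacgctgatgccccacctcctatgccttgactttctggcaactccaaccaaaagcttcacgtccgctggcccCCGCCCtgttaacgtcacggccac
Mthfd2 (chr6:83317605-83317704, minus strand): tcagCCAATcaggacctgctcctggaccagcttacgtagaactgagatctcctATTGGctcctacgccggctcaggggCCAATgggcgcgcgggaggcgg
Mthfd1 (chr12:76255132-76255231, plus strand): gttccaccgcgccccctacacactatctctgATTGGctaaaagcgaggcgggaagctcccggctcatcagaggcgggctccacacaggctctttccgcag
Mthfd2l (chr5:90931096-90931195, plus strand): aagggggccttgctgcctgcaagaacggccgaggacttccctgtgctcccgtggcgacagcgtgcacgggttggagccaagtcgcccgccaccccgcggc

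The CCAAT box occurred 3 times before *Mthfd2* and once before *Mthfd1*, and the GC box once each before *Sfxn1* and *Mthfd1l*. *Mthfd2l* had neither in this window. These boxes were not sought before *Mthfs* and *Mtfmt*, which were not called and also had a promoter entry. No contrast between called and uncalled genes can thus be drawn. Over all 32851 promoters, 24.7% held GGGCGG and 18.9% CCAAT in the same window. The share of G and C was 70% for *Sfxn1*, 61% for *Mthfd1l*, 63% for *Mthfd2*, 62% for *Mthfd1* and 71% for *Mthfd2l*, against a median of 55% over all promoters. In the longer window from 250 bases before to 50 bases after the start, the core of the C/EBP-ATF response element (TGATGNAA, either strand) was found before 0 of the 7 genes with a promoter entry and in 3.97% of all promoters. The E-box CACGTG was likewise found before 0 of the 7, and in 7.15% of all promoters. The NRF1 core was found at 1 of the 7, *Mthfs*, with 2 matches, and in 4.60% of all promoters. These are matches of letters only.

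Within-sample ratios of enzyme pairs, in which the size factor nearly cancels (differences of log2(normalized count + 1)), were compared for 3 pairs. The test was an exact permutation of the genotypes, two-sided, with 70 possible labelings. The log2 ratio of *Mthfd2* over *Mthfd2l* was 3.55, 3.51, 3.36 and 3.42 in control TEMs and 3.21, 3.34, 3.11 and 3.16 in PHGDH-deficient TEMs. All 4 PHGDH-deficient samples lay below all control samples. The mean difference was -0.26 on the log2 scale (exact permutation p = 0.0286, the smallest possible, and 0.0857 after adjustment over the 3 pairs, which did not pass). When only 1 of 3 pairs reaches the smallest p, it cannot pass this adjustment with 70 labelings. The adjusted value therefore decides nothing about this pair. Per length, *Mthfd2* exceeded *Mthfd2l* 21.1 ± 1.25 times (SD, n = 4) in control TEMs and 17.6 ± 1.22 times in PHGDH-deficient TEMs. The size of this excess depends on the joined exon length used for both genes. The stretches that *Mthfd2l* shares with other transcripts bear on this ratio, and their part in it was not tested.

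The ratio of the mitochondrial to the cytosolic synthetase, *Mthfd1l* over *Mthfd1*, overlapped between genotypes. Its log2 mean was -0.0097 ± 0.0818 (SD, n = 4) in control TEMs and -0.070 ± 0.0632 in PHGDH-deficient TEMs (exact permutation p = 0.286, adjusted 0.429). The ratio of *Aldh1l2* over *Mthfd1l* also overlapped, with log2 means of -5.95 ± 0.285 and -5.80 ± 0.403 (exact permutation p = 0.686, adjusted 0.686). This last ratio rests on the few reads of *Aldh1l2*.

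**Figure D3:**
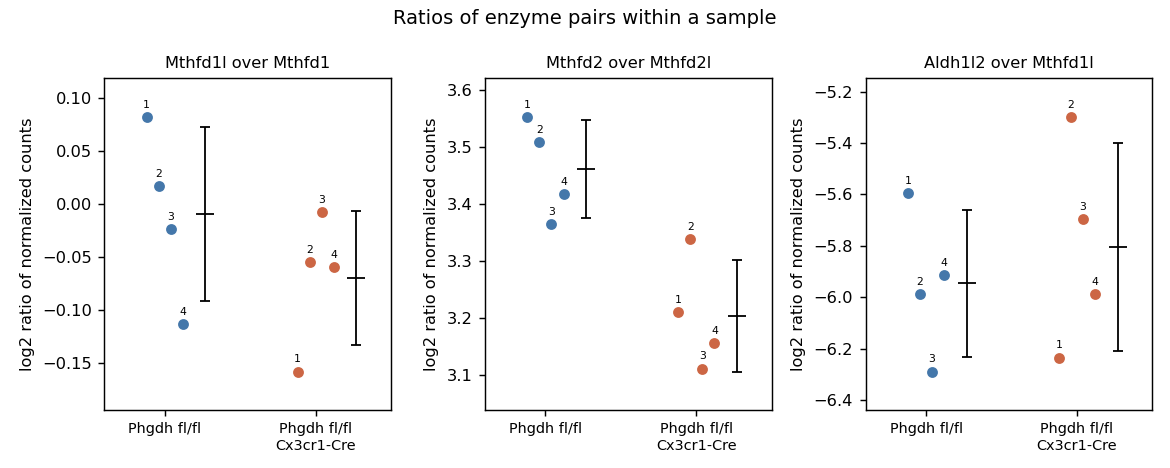
Within-sample log2 ratio of normalized counts for 3 enzyme pairs, with points for samples (replicate number above) and the mean and SD of 4 samples beside them; each panel has its own axis. The ratio of *Mthfd2* over *Mthfd2l* lay between 3.36 and 3.55 in control TEMs and between 3.11 and 3.34 in PHGDH-deficient TEMs.

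The rest of the folate pathway was described from a list of 23 genes. Of these, 20 had a row and 19 were tested, with 8 lower, 1 higher and 10 not called in PHGDH-deficient TEMs, beside the 20.3% and 20.8% of all tested genes. Their median was -0.16 on the log2 scale. Among the lower genes were some that act on serine and glycine. *Shmt2*, which encodes the mitochondrial serine hydroxymethyltransferase directly before *Mthfd2*, had 1132, 1079, 1067 and 1171 normalized counts in control TEMs and 959, 962, 922 and 898 in PHGDH-deficient TEMs. Its log2 fold change was -0.25 (limma adjusted p = 5.7e-05). For *Gcsh*, the carrier protein of the glycine cleavage system, it was -0.39 (limma adjusted p = 9.3e-09). The cytosolic *Shmt1*, with a mean of 83.4 normalized counts in control TEMs and 68.2 in PHGDH-deficient TEMs, did not pass (-0.29, limma adjusted p = 0.0742), but was called with quantile normalization (-0.32, 0.0441) and without the limma trend (0.0188). Of the other glycine cleavage genes, *Dld* (0.011) and *Amt* (-0.014) were not called, and *Gldc*, with means of 3.87 and 3.89 normalized counts, was below the filter. The sideroflexins *Sfxn2* (-0.16) and *Sfxn3* (-0.26), paralogs of *Sfxn1*, were both lower. The call of *Sfxn2* (limma adjusted p = 0.0298) was lost without control replicate 1 (0.0717), 3 (0.0768) or 4 (0.0502) and without PHGDH-deficient replicate 3 (0.0639) or 4 (0.0899). It was also lost with DESeq2 (0.0674), with replicates 1 and 4 alone (0.0990) and with replicates 2 and 3 alone (0.345).

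*Tyms*, which encodes thymidylate synthase, was lower as well, with a log2 fold change of -0.32 (limma adjusted p = 0.0109), and was not called with replicates 2 and 3 alone (-0.23, 0.266). *Tyms* overlapped between genotypes because control replicate 2 lay at 160 normalized counts, against 161.6 in the highest PHGDH-deficient sample. The 1 higher gene of the list was *Mtr*. It encodes methionine synthase and had 2426 ± 124 normalized counts (SD, n = 4) in control TEMs and rose to 2688 ± 29.8 in PHGDH-deficient TEMs (log2 fold change 0.15, limma adjusted p = 0.00106). The genotypes did not overlap for *Mtr*. Of the cobalamin partners of methionine synthase, *Mmachc* was lower (-0.26) and *Mtrr* was not called (0.013). *Mmachc* lost its call with replicates 1 and 4 alone (limma adjusted p = 0.106) and with replicates 2 and 3 alone (0.102).

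The folate receptor genes had the largest differences of the list. *Folr2*, a receptor gene of resident-like macrophages, had 25577 ± 763 normalized counts (SD, n = 4) in control TEMs and fell to 10563 ± 131 in PHGDH-deficient TEMs (log2 fold change -1.28), and *Folr1* fell from 45.2 ± 11.3 to 19.7 ± 4.53 (-1.16). With replicates 1 and 4 alone *Folr1* was not called (-0.75, limma adjusted p = 0.0685). The folate carriers *Slc19a1* (-0.16, limma adjusted p = 0.104) and *Slc46a1* (-0.097, limma adjusted p = 0.151) were not called, although *Slc19a1* was without PHGDH-deficient replicate 1 (-0.24, 0.0173). Nor were *Fpgs* (-0.079) and *Ggh* (0.055), which add and remove the glutamate tail of folates, the cytosolic formyl-THF dehydrogenase gene *Aldh1l1* (0.0041) or *Mthfsl* (0.029), which neighbors *Mthfs*. *Ggh* was called without control replicate 4 (0.084, limma adjusted p = 0.0347). The sign of *Aldh1l1* and *Dld* flipped with quantile normalization and that of *Amt* with scaling to total reads.

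**Figure D4:**
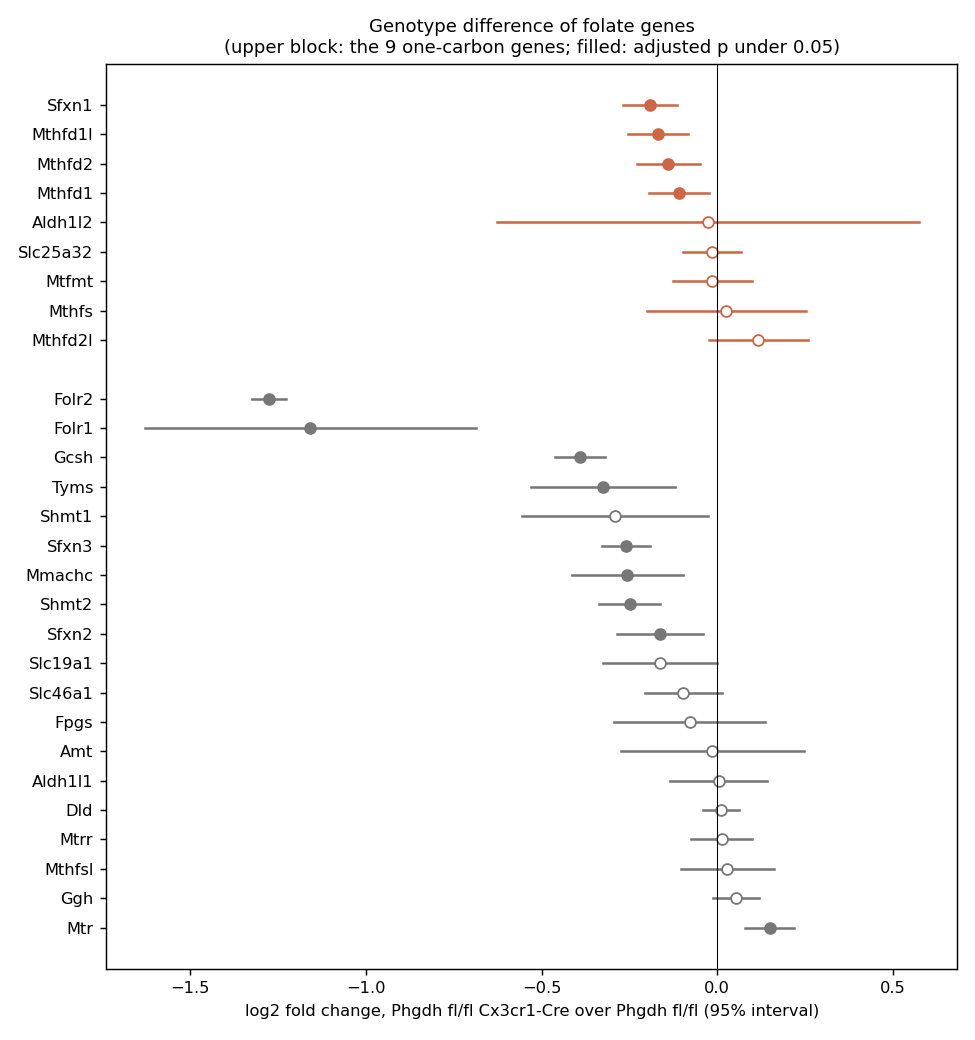
log2 fold change of PHGDH-deficient over control TEMs with its 95% interval (limma) for the 9 one-carbon genes (upper block) and the 19 other folate genes tested (lower block); filled points had an adjusted p under 0.05. In the upper block *Sfxn1*, *Mthfd1l*, *Mthfd2* and *Mthfd1* are filled, and all filled points except *Mtr* lie left of 0.

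Formyl-THF feeds the purine ring, and 11 of the 13 genes of purine nucleotide synthesis listed were lower, 1 (*Prps2*) was higher and 1 (*Pfas*) was not called, beside 20.3% lower and 20.8% higher among all tested genes. The median log2 fold change was -0.16. The largest changes were those of *Adssl1* (-0.32), *Gart* (-0.29) and *Adsl* (-0.25). The steps that consume formyl-THF belong to *Gart* and to *Atic* (-0.24), and *Atic*, like *Prps2*, *Pfas* and *Atf4*, was named after its value was seen. Of the serine synthesis genes, the deleted *Phgdh* itself, *Psph* (-0.32) and *Psat1* (-0.20) were all lower, beside 20.3% of all tested genes. *Psat1* overlapped between genotypes (limma adjusted p = 0.0187). It had 412 to 492 normalized counts in control TEMs and 389 to 430 in PHGDH-deficient TEMs. By qPCR the paper reports no difference of *Psat1* or *Psph* in macrophages sorted from tumors, which are other cells than these. It also reports no obvious effect of the deletion on *Psat1*, *Shmt1* or *Shmt2* by qPCR in BMDMs. Those BMDMs were stimulated with an interleukin or lipopolysaccharide and not with conditioned medium. The targets of ATF4, the transcription factor that induces serine synthesis and *Mthfd2* under amino acid stress, were split. Of the 21 tested, which include *Atf4* itself, 7 were lower, the deleted *Phgdh* among them, and 8 higher, again beside 20.3% and 20.8% of all tested genes. The most changed were *Phgdh*, *Cth* (0.91) and *Gdf15* (0.65), and *Atf4* itself was not called (-0.047, limma adjusted p = 0.121). *Cth* had few reads and its genotypes overlapped (limma adjusted p = 0.0264). It had 9.20 to 22.9 normalized counts in control TEMs and 17.3 to 49.6 in PHGDH-deficient TEMs. The 3 tested genes of mitochondrial translation initiation (*Mtif2*, *Mtif3* and *Mars2*), which act beside *Mtfmt*, were not called in either direction, with log2 fold changes between -0.0098 and 0.079. *Phgdh*, *Psph*, *Psat1* and *Shmt2* stand in more than 1 of these lists, so their counts are not independent.

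The profiles most like those of the most changed genes were sought over the 8 samples among the 10515 genes whose mean reached 100 normalized counts. For *Sfxn1* the highest Pearson correlations were with *Dcakd* (r = 0.988), *Ppbp* (0.988) and *Cryl1* (0.987). For *Mthfd1l* they were with *Fam136a* (0.985), *Slc8a1* (0.979) and *Cdca7* (0.978). All 6 were also lower in PHGDH-deficient TEMs, with log2 fold changes between -0.64 and -0.18, and the points share the step between genotypes. Among the one-carbon genes other than *Aldh1l2*, *Sfxn1* and *Mthfd1l* had the highest correlation with each other (r = 0.888 over 8 samples), which was 0.337 after the genotype means were taken off. With the means taken off, the highest value was 0.613, for *Mthfd1l* and *Slc25a32*.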

How the data were processed

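RNA from 8 samples of TEMs, 4 per genotype as the labels give it, was sequenced by the authors in single-end reads of 75 bases with a kit that keeps strand. The authors mapped the reads to mm10 with TopHat2, counted them per gene with HTSeq 0.6 and ran DESeq2. The deposited sample values are a signal per gene, namely the reads of a gene over the size factor of the sample (0.889 to 1.09), although file and paper speak of FPKM. Whole reads were recovered for 100% of the 144353 values above 0 (largest distance from a whole number 0.000451, tolerance 0.01). The deposited table also holds a mean, fold changes, standard errors and p-values of the authors' own comparison, which were not used.

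The test between genotypes was that of limma 3.58.1, run under R 4.3.3 (lmFit, eBayes with trend, two-sided, Benjamini-Hochberg over 13629 genes, pseudocount 1, mean normalized count of at least 10, no covariate). Called means an adjusted p under 0.05. Alternatives were edgeR 4.0.16 (quasi-likelihood, TMM) and DESeq2 1.42.0 on the recovered reads, which called 2788 and 2488 genes lower against 2764, and 2820 and 2578 higher against 2830. Further alternatives were other pseudocounts, filters and scalings, no trend, a replicate block and a term for replicates 1 and 4 against 2 and 3. The last were replicates 1 and 4 or 2 and 3 alone and leaving out each sample. Ratios were tested in Python 3.11.15. FPKM used recovered reads and the exon lengths of GENCODE M21, of the build of mm10, in which 18629 of 18635 genes were found. RefSeq promoters were found for 7 of the 9 genes; *Slc25a32* and *Aldh1l2* had no entry. The precision of genes with few reads is set by counting. The scripts were tested on simulated data with log2 changes of 0.5 and 1. The estimates of the 9 genes were smaller, and changes of their size were not simulated.

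The members and lists were chosen with earlier results of these data known. Named were the 9 genes, the tested genes of the folate list, the 3 most changed called genes of each other list, *Phgdh* and *Cx3cr1* as checks, markers, and the 3 profiles most like the 2 most changed called genes. Some listed genes are not reported here and were left out of the counts.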

Additional observations from a re-analysis of the deposited data

Results flagged for a closer look

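Of 62 groups of 4 samples examined over the folate genes and the ratios, 2 held a sample far from the other 3, and chance gives about 1 in 20. For *Sfxn1*, control replicate 3 had 1294 normalized counts, while the other control samples lay between 1378 and 1393. Without it the log2 fold change of *Sfxn1* was -0.22. For *Folr1*, control replicate 3 had 62.0 normalized counts, while the others lay between 38.1 and 42.0, and without it the log2 fold change was -1.0.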

How the results depend on the processing

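*Sfxn1* kept its call in all 20 alternatives run (adjusted p from 0.00012 to 0.0237). Replicates 1 and 4, or 2 and 3, alone leave 2 samples per genotype. Below, values are log2 fold changes unless counts are named, and the causes of changes were not tested. *Mthfd1* lost its call with scaling to total reads (-0.093, adjusted p = 0.0732), without the limma trend (-0.11, 0.0582), with DESeq2 (-0.11, 0.0771), with replicates 1 and 4 alone (-0.085, 0.343) and with replicates 2 and 3 alone (-0.13, 0.0768). *Mthfd2* lost it without the limma trend (-0.14, 0.115) and with replicates 1 and 4 alone (-0.13, 0.0636), as did *Mthfd1l* with the latter (-0.18, 0.0662).

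Genes that were not called changed sign as follows. Scaling to total reads gave 0.00013 for *Slc25a32*, 0.0016 for *Mtfmt* and 0.0014 for *Amt*. Quantile normalization gave -0.027 for *Mthfs*, -0.016 for *Aldh1l1* and -0.015 for *Dld*. Replicates 1 and 4 alone gave 0.027 for *Mtfmt* and -0.0082 for *Mtrr*. Replicates 2 and 3 alone gave -0.097 for *Mthfs*, 0.48 for *Aldh1l2*, 0.0086 for *Slc25a32*, 0.029 for *Amt*, -0.0084 for *Dld*, 0.015 for *Fpgs* and -0.021 for *Mthfsl*. *Aldh1l2* was not tested with a minimum of 100.

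The count of the 9 genes called lower was 2 without the trend and 1 with replicates 1 and 4 alone. With replicates 1 and 4 alone, 5 other folate genes were lower, 7 purine genes were lower and 0 higher, and 1400 of all genes were lower and 1525 higher. With replicates 2 and 3 alone, 5 other folate, 7 purine, 1 serine synthesis and 4 ATF4 target genes were lower.

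Leaving out 1 sample gave -0.12 to -0.086 for *Mthfd1*, -0.19 to -0.10 for *Mthfd2*, -0.057 to 0.082 for *Mthfs*, -0.19 to 0.13 for *Aldh1l2*, -0.051 to 0.011 for *Mtfmt*, -0.016 to 0.030 for *Mtrr*, -0.028 to 0.047 for *Aldh1l1*, -0.12 to 0.089 for *Amt*, -0.00074 to 0.023 for *Dld*, -0.17 to -0.0066 for *Fpgs*, 0.030 to 0.084 for *Ggh* and -0.014 to 0.068 for *Mthfsl*. The count of the 9 called lower was 2 to 4, with 2 without PHGDH-deficient replicate 3. The count of other folate genes called higher was 1 to 2, with 2 (*Mtr* and *Ggh*) without control replicate 4. The difference in the *Aldh1l2* over *Mthfd1l* ratio was -0.027 to 0.29.

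Samples of the same number deviated from their genotype means with correlations of 0.063, 0.098, 0.126 and 0.078. Across genotypes, replicates 1 and 4 reached 0.135 and 0.076, and replicates 2 and 3 reached 0.075 and 0.048. All other pairs lay between -0.124 and -0.036. These values do not settle whether the numbers are pairs. The labels do not say that equal numbers share an origin, so the numbers were not taken as pairs. With the replicate number as a block, 4 of the 9 genes were lower, 2773 of all genes were lower and 2824 higher, and the adjusted p of *Mthfd2* was 0.00099.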
